A study of Homo sapiens with 6 samples.

Results

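The insulin-like growth factor 2 mRNA-binding proteins are a family of 3 paralogs, IGF2BP1, IGF2BP2 and IGF2BP3, described here together with IGF2, the growth factor whose transcript gave the family its name. These 4 genes were chosen by symbol, by matching the Ensembl gene identifiers of the deposited values to GENCODE 29 on GRCh38. Values for 3 of the 4, the paralogs, were analysed, out of 25969 genes with values, and all 3 passed the filter on low values that left 20927 genes for testing. IGF2 was not analysed here.

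The libraries came from human prostate cancer cells labelled LNCaP, a line derived from a lymph node metastasis. One group of 3 libraries was from cells carrying an overexpression vector for VIM-AS1, a noncoding transcript made from the opposite strand of the vimentin gene, and the other group of 3 was from cells given the pcDNA3.1 vector as control. Transfected cells were studied as populations, and separate cultures are not named in the labels. P-values therefore rest on the spread between libraries, which may be technical and which the main test, limma, pools in part over genes. Published work on VIM-AS1 names IGF2BP2 as its protein partner, which is the reason for describing the family in this contrast.

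The 3 proteins carry RNA recognition motifs followed by KH domains, bind transcripts that often carry N6-methyladenosine, and are known for protecting bound mRNAs from decay. IGF2BP1 and IGF2BP3 are oncofetal: they are abundant in the embryo, low in most adult tissues and present again in many tumours, whereas IGF2BP2 is found more widely in adult tissue. The transcripts of the family are also known targets of the let-7 microRNAs, which are low in the embryo and high in differentiated tissue.

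Sequences of the family are shown because reads are assigned to a paralog by the bases in which the paralogs differ. In the 90-base window of the aligned coding regions in which the 3 paralogs were most alike, 65 bases were identical in all 3. Capitals mark the positions at which at least 1 paralog differs, and each stretch lies in a single exon of the GENCODE 29 principal transcript, on GRCh38. The windows are at chr17:49038355-49038444 on the plus strand for IGF2BP1, at chr3:185689360-185689449 on the minus strand for IGF2BP2 and at chr7:23351310-23351399 on the minus strand for IGF2BP3.
IGF2BP1: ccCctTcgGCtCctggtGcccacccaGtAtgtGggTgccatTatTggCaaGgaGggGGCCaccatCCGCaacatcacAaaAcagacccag
IGF2BP2: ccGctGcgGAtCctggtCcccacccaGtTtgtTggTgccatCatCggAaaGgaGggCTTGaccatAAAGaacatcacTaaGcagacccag
IGF2BP3: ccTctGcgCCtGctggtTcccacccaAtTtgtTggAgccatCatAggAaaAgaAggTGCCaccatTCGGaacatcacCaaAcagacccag

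Over the whole aligned coding regions, IGF2BP1 and IGF2BP2 shared 67.4% of bases, IGF2BP1 and IGF2BP3 68.2%, and IGF2BP2 and IGF2BP3 67.1%. The longest run of identical bases was 22 between IGF2BP1 and IGF2BP2, 21 between IGF2BP1 and IGF2BP3 and 14 between IGF2BP2 and IGF2BP3. No stretch of 50 bases was shared between any pair of paralogs over all their annotated transcripts. The coding regions are of similar length, with 577 codons in IGF2BP1, 599 in IGF2BP2 and 579 in IGF2BP3, but the 3′ UTR of the principal transcript has 6206 bases in IGF2BP1, 1792 in IGF2BP2 and 2153 in IGF2BP3.

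The paralogs also share matches to the let-7 seed, which are printed with the microRNA because they are a feature of the family's transcripts that was not used to choose it. In let-7a-5p (RefSeq, GRCh38.p14) the capitals mark the seed, bases 2 to 8. The same seed stands in 9 mature sequences compared, the let-7 family and miR-98.
let-7a-5p: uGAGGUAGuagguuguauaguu
The motif searched was CTACCTC, the reverse complement of the seed, on the transcript strand of the 3′ UTRs of GENCODE 29 principal transcripts. It was found 4 times in IGF2BP1, 1 time in IGF2BP2 and 1 time in IGF2BP3. The 4 matches in IGF2BP1 lie at chr17:49051062-49051083, chr17:49053699-49053720, chr17:49054353-49054374 and chr17:49054998-49055019 on the plus strand, the match in IGF2BP2 at chr3:185644220-185644241 and the match in IGF2BP3 at chr7:23311795-23311816, both on the minus strand (GRCh38). Each is shown over 22 bases, with the motif in capitals.
IGF2BP1 match 1: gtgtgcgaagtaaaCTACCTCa
IGF2BP1 match 2: agcagtgctagtaaCTACCTCa
IGF2BP1 match 3: tataaatggattaaCTACCTCa
IGF2BP1 match 4: cacttttgttttatCTACCTCt
IGF2BP2 match 1: acacacagaagaagCTACCTCa
IGF2BP3 match 1: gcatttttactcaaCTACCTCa
In IGF2BP1, 3 of the 4 matches are followed by an A. Among 19568 principal coding transcripts, 8.31% had at least 1 match, at 0.0625 matches per kilobase of 3′ UTR, beside 0.645 per kilobase in IGF2BP1, 0.558 in IGF2BP2 and 0.464 in IGF2BP3. These are matches of letters, and the microRNAs themselves were not measured.

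The deposited values are normalized reads per gene. The 6 libraries held between 14762893 and 19889745 reads, and 3 reads, the most that a count of 0 allows, corresponded to 0.151 to 0.203 CPM, the reads of a gene scaled to a common library total. VIM-AS1 itself had 2197, 2019 and 2763 normalized reads in the VIM-AS1 libraries, against 8.63, 1.22 and 5.53 in the control libraries, in the direction of the labels. In both groups the third library differed most from the rest, so each comparison was fitted without and with a term for the third libraries. With limma and Benjamini-Hochberg adjustment, 0.0239% of the 20927 genes passed an adjusted p of 0.05 without that term, 0.0143% higher and 0.00956% lower in VIM-AS1 libraries. With the term, 19.4% passed, 11.5% higher and 7.94% lower. These shares cover genes of every level past the filter and were not matched to the levels of the listed genes below. Below, "rose" and "fell" are used of genes that passed in the fit with the term, and none of the genes so described passed in the fit without it. Of the luminal prostate markers, HOXB13 averaged 685.9 ± 132.0 normalized reads in VIM-AS1 libraries and 616.6 ± 186.6 in control libraries (SD, n = 3 each). KLK3, which encodes prostate-specific antigen and is a defining product of LNCaP cells, was at 0 in all VIM-AS1 libraries and had 1.92, 0 and 0 normalized reads in control libraries, and FOLH1 was at 0 in all VIM-AS1 libraries and had 3.84, 2.44 and 0 in control libraries. The expression of KLK3 and FOLH1 therefore went against the label, and the cells are called by their label only. The mitochondrial share of reads was 5.57 to 7.06% in VIM-AS1 libraries and 8.73 to 14.3% in control libraries, and its part in the results was not tested.

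IGF2BP1 was the most abundant paralog and the one that rose with VIM-AS1. It had 959.8, 906.3 and 904.6 normalized reads in VIM-AS1 libraries 1 to 3, against 717.5, 636.5 and 692.7 in control libraries 1 to 3. The lowest VIM-AS1 library lay above the highest control library, so the groups did not overlap, and the third libraries did not stand apart for this gene. Over all genes tested, 19.8% had groups that did not overlap, 9.5% with VIM-AS1 libraries higher and 10.3% with VIM-AS1 libraries lower. The mean was 923.6 ± 31.4 in VIM-AS1 libraries and 682.2 ± 41.5 in control libraries (SD, n = 3 each), a ratio of 1.35.

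On the log2 scale, the IGF2BP1 change was 0.44, with a standard error of 0.11 and a 95% interval from 0.22 to 0.66 in the fit with the third-library term (limma, adjusted p = 0.00623). The same change had a standard error of 0.19 and an adjusted p of 0.35 in the limma fit without the term, and an adjusted p of 0.00031 with the replicate number as a block. The limma fits draw the variance of each gene toward a trend over all genes. These standard errors and p-values therefore depend on the other genes too, and do not measure the spread of IGF2BP1 alone. The change was 0.46 between the first and second libraries of the groups and 0.38 between the third libraries. In limma with the term, leaving out VIM-AS1 replicate 1 gave 0.41 with an adjusted p of 0.051, and leaving out VIM-AS1 replicate 3 or control replicate 3 gave 0.46 with an adjusted p of 0.11 in both cases. With reads scaled by library size it was 0.38 with an adjusted p of 0.054. One call among 3 tested members stands beside the 19.4% of all genes that passed. In bulk RNA, more cells that express a gene and more RNA per cell cannot be told apart.

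The gene lies at chr17:48997412-49055650 on the plus strand, with 9109 bases of annotated exon over 6 transcripts. Its exons share 37 bases with the antisense gene AC091133.2 and 76 bases with the antisense gene AC091133.3. AC091133.2 averaged 3.08 normalized reads in VIM-AS1 libraries and 4.40 in control libraries, and AC091133.3 averaged 1.01 and 0. The strand setting of the counting was not given in the sources used here.

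IGF2BP2, the paralog described as the partner of VIM-AS1, did not pass the test. It had 72.7, 61.7 and 104.4 normalized reads in VIM-AS1 libraries 1 to 3, against 77.7, 72.1 and 105.8 in control libraries 1 to 3. The groups overlapped throughout, and the third library was the highest in both. The mean was 79.6 ± 22.1 in VIM-AS1 libraries and 85.2 ± 18.1 in control libraries (SD, n = 3 each), and the log2 change was -0.11. Its 95% interval ran from -0.53 to 0.31 with the third-library term (limma, adjusted p = 0.76) and from -0.78 to 0.56 without it (limma, adjusted p = 0.92), so a rise of the size seen for IGF2BP1 lay outside the first interval and inside the second, and a fall of that size lay inside both.

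Between 59 and 134 reads per library stood behind the IGF2BP2 values. The gene lies at chr3:185643739-185825056 on the minus strand and has 4735 bases of annotated exon over 11 transcripts. Of its 50-base stretches, 6.45% also occur in other annotated genes, on either strand, so a small part of its reads could be assigned elsewhere. The same share was 0.461% for IGF2BP1 and 21.9% for IGF2BP3.

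IGF2BP3 did not pass the test either, and it varied most between libraries. It had 190.7, 167.5 and 364.3 normalized reads in VIM-AS1 libraries 1 to 3, against 195.7, 152.7 and 292.2 in control libraries 1 to 3. In both groups the third library was the highest, the groups overlapped, and the spread within a group was wider than the difference between them. The mean was 240.8 ± 107.5 in VIM-AS1 libraries and 213.5 ± 71.5 in control libraries (SD, n = 3 each). The log2 change was 0.14, with a 95% interval from -0.17 to 0.45 with the third-library term (limma, adjusted p = 0.58) and from -0.61 to 0.89 without it (limma, adjusted p = 0.91).

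IGF2BP3 lies at chr7:23310209-23470467 on the minus strand, with 8511 bases of annotated exon over 18 transcripts. On the opposite strand, MALSU1, a mitochondrial ribosome assembly factor gene, overlaps 1521 of these bases, or 17.9% of them. MALSU1 averaged 800.9 ± 42.9 normalized reads in VIM-AS1 libraries and 625.1 ± 120.1 in control libraries (SD, n = 3 each). It passed as higher in limma with the term (log2 change 0.37, adjusted p = 0.044) and with the replicate block (adjusted p = 0.0076). With the term, the adjusted p was 0.052 after TMM scaling and 0.21 after library-size scaling (limma). Without a known strand setting, reads in the shared stretch cannot be told apart, and the IGF2BP3 values are uncertain at least to that extent. Of the 8847 stretches of 50 bases in IGF2BP3, 1937 also occur in other annotated genes on either strand, 1472 of them in MALSU1. IMP3, an older alias of this paralog, is the official symbol of an unrelated gene and was not used.

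**Figure D1:**
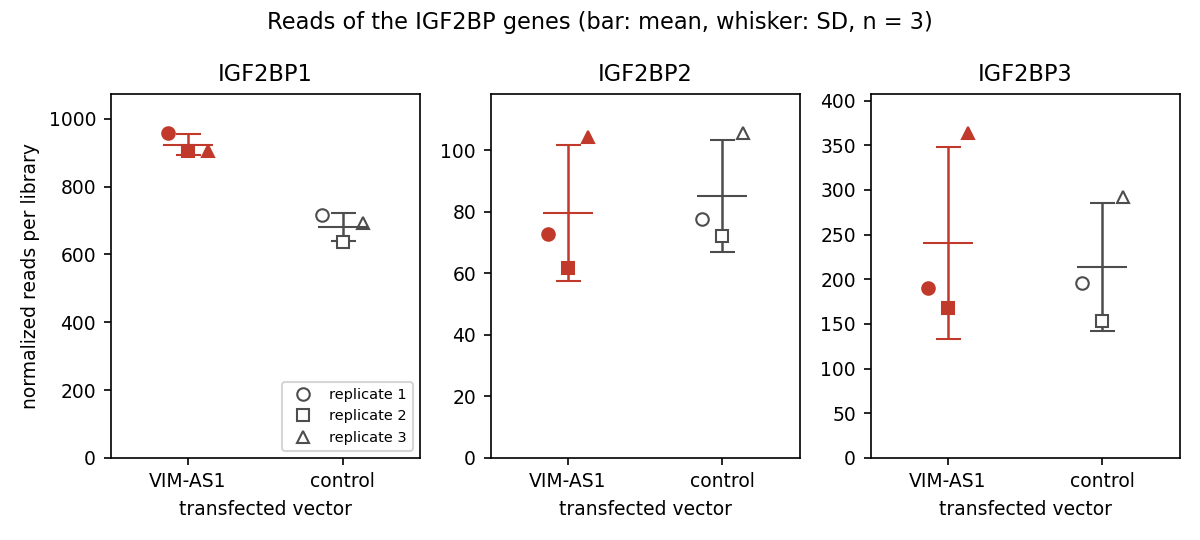
Normalized reads per library (vertical axis, from 0) of IGF2BP1, IGF2BP2 and IGF2BP3 in VIM-AS1 and control libraries, with symbols for replicates 1 to 3 and bars for the mean with its SD (n = 3). The VIM-AS1 libraries lie between 904.6 and 959.8 for IGF2BP1, all above the control libraries, while for IGF2BP2 and IGF2BP3 the third library is the highest of either group.

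In IGF2BP2 and IGF2BP3, but not in IGF2BP1, most of the spread within a group lay between the third library and the others. On the log2 scale, the third library differed from the mean of the first and second by -0.04 for IGF2BP1 among VIM-AS1 libraries and by 0.04 among control libraries. For IGF2BP2 this difference was 0.63 among VIM-AS1 libraries and 0.49 among control libraries, and for IGF2BP3 it was 1.02 and 0.75. The principal transcript of IGF2BP3 has a GC content of 40.5%, which is higher than for 16.0% of genes, beside 48.7% for IGF2BP2 and 49.6% for IGF2BP1. The part of GC content in the third-library difference was not tested.

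Levels of different genes were compared per length, in TPM, which divides reads by annotated exon length and scales every library to the same total. IGF2BP1 had 16.3, 14.4 and 19.99 TPM in VIM-AS1 libraries 1 to 3, against 11.8, 8.55 and 13.99 TPM in control libraries 1 to 3. IGF2BP3 had 3.47, 2.84 and 8.62 TPM in VIM-AS1 libraries, against 3.45, 2.20 and 6.32 TPM in control libraries. IGF2BP2 had 2.38, 1.88 and 4.44 TPM in VIM-AS1 libraries, against 2.46, 1.86 and 4.11 TPM in control libraries. The order was IGF2BP1, then IGF2BP3, then IGF2BP2 in all 6 libraries, also when the longest transcript was used as the length.

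The ratio of IGF2BP3 to IGF2BP2 within a library was 1.46, 1.51 and 1.94 in VIM-AS1 libraries and 1.40, 1.18 and 1.54 in control libraries, above 1 each time. IGF2BP3 averaged 4.98 ± 3.17 TPM in VIM-AS1 libraries and 3.99 ± 2.11 in control libraries (SD, n = 3 each). IGF2BP2 averaged 2.90 ± 1.36 and 2.81 ± 1.16. In both groups the SD of IGF2BP3 was wider than the gap between these means, and that of IGF2BP2 was not. IGF2BP1 averaged 16.9 ± 2.86 TPM in VIM-AS1 libraries and 11.5 ± 2.74 in control libraries (SD, n = 3 each), above both of the others in every library. Averaged over all 6 libraries, the TPM level of IGF2BP1 was higher than that of 78.0% of genes, that of IGF2BP3 higher than 63.8% and that of IGF2BP2 higher than 57.9%.

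As a share of the summed TPM of the family, IGF2BP1 held 73.6%, 75.3% and 60.5% in VIM-AS1 libraries 1 to 3, against 66.7%, 67.8% and 57.3% in control libraries 1 to 3. Within each replicate number its share was higher in the VIM-AS1 library, and in both groups it was lowest in the third library. The ratio of IGF2BP1 to IGF2BP2 was 6.86, 7.63 and 4.51 in VIM-AS1 libraries and 4.80, 4.59 and 3.40 in control libraries. Whether the paralogs changed differently was tested on the log2 of such ratios with a two-sided exact permutation test, for 3 pairs of paralogs, and was added after the values had been seen. The difference in log2 ratio was 0.55 for IGF2BP1 over IGF2BP2 (exact permutation p = 0.30, adjusted 0.45), 0.30 for IGF2BP1 over IGF2BP3 (p = 0.50, adjusted 0.50) and 0.25 for IGF2BP3 over IGF2BP2 (p = 0.30, adjusted 0.45), with the VIM-AS1 library higher in 3 of 3 replicate numbers each time. With 3 libraries a group, the smallest p this test can give is 0.10, and it does not use the pairing by replicate number. Within numbers 1, 2 and 3 the log2 ratio of IGF2BP1 to IGF2BP2 was higher in the VIM-AS1 library by 0.52, 0.73 and 0.41 (mean 0.55 ± 0.17 SD over the 3 pairs). For IGF2BP1 over IGF2BP3 the difference was 0.46, 0.38 and 0.07, and for IGF2BP3 over IGF2BP2 it was 0.06, 0.36 and 0.34. An exact two-sided sign-flip permutation test over the 3 pairs gave p = 0.25 for each ratio, the smallest it can give, so neither design could pass the threshold.

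**Figure D2:**
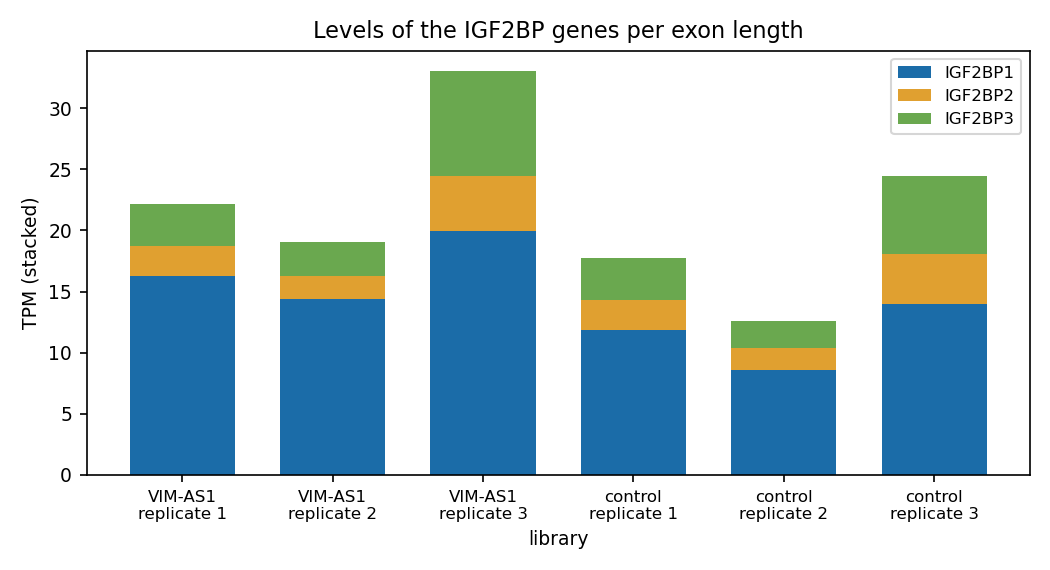
Levels of IGF2BP1, IGF2BP2 and IGF2BP3 per exon length in each library, as stacked bars in TPM from 0, with VIM-AS1 libraries on the left and control libraries on the right. IGF2BP1 makes up between 57.3% and 75.3% of each bar, and the tallest bar of each group is the third library.

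Across the 6 libraries, IGF2BP2 and IGF2BP3 followed each other, with a Pearson r of 0.92 on log2 values, whereas IGF2BP1 had an r of -0.16 with IGF2BP2 and 0.19 with IGF2BP3. These are descriptions over 6 libraries that share treatment and the third-library difference. Among 9757 genes (9758 for IGF2BP2) with a mean of at least 100 normalized reads, those most like IGF2BP1 were BOLA3 (r = 0.997), KLHL18 (0.994) and AMMECR1L (0.992), over the same 6 libraries. BOLA3, a mitochondrial iron-sulfur cluster factor gene, had 459.4, 433.0 and 436.9 normalized reads in VIM-AS1 libraries, against 288.7, 232.1 and 259.9 in control libraries. It shared with IGF2BP1 a gap between the groups and no rise in the third libraries. The genes most like IGF2BP2 were PICALM, EXOC5 and KLHL23 (r = 0.998 each), and those most like IGF2BP3 were NDUFS1 (0.9998), NUP50 (0.999) and RSL1D1 (0.998). NDUFS1, which encodes a subunit of respiratory complex I, had 880.8, 811.2 and 1302 normalized reads in VIM-AS1 libraries, against 894.0, 774.6 and 1146 in control libraries, with the third library highest in both groups.

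The annotated genes that flank the family were described as well. SENP2, a SUMO protease gene 10188 bases from IGF2BP2, averaged 480.0 ± 85.9 normalized reads in VIM-AS1 libraries and 439.2 ± 28.1 in control libraries (SD, n = 3 each), and did not pass (log2 change 0.12, limma with the term, adjusted p = 0.55). On the other side, 90850 bases away, the splicing regulator gene TRA2B rose, with 1807, 1737 and 2685 normalized reads in VIM-AS1 libraries, against 1272, 1079 and 1701 in control libraries. Its groups did not overlap, and the log2 change was 0.62 (limma with the term, adjusted p = 0.00031). Without VIM-AS1 replicate 3 the change was 0.60 with an adjusted p of 0.071, and without control replicate 3 it was 0.60 with an adjusted p of 0.075. GPNMB, a membrane glycoprotein gene 35101 bases from IGF2BP3, fell, with 134.9, 141.1 and 148.4 normalized reads in VIM-AS1 libraries, against 178.4, 197.9 and 237.0 in control libraries. Its log2 change was -0.52 (limma with the term, adjusted p = 0.020), and the adjusted p was between 0.054 and 0.22 without any single VIM-AS1 library or without control replicate 2 or 3. The nearest annotated gene on the other side of IGF2BP3, 10286 bases away, is the processed pseudogene ENSG00000236654, with at most 3.92 normalized reads in a VIM-AS1 library and 6.32 in a control library. GIP, the nearest annotated gene on the left of IGF2BP1, had at most 0.98 normalized reads in any library. On the right, the pseudogene B4GALNT2P1 was not analysed here, and B4GALNT2, the next gene with values, averaged 73.6 ± 9.89 in VIM-AS1 libraries and 100.9 ± 8.53 in control libraries (SD, n = 3 each) and did not pass (limma with the term, adjusted p = 0.12).

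The insulin-like growth factor axis comprises ligands, receptors, adaptors that carry the receptor signal, and binding proteins that hold the ligands. The receptor, adaptor and binding protein transcripts that passed were all higher with VIM-AS1. Of 24 listed genes, 20 had values, 19 were tested, 8 rose, 1 fell and 10 did not pass in the limma fit with the term, beside 11.5% higher and 7.94% lower of all genes. Without the term, 0 of the 19 passed in limma (10 at an unadjusted p under 0.05), 0 in edgeR and 1 in DESeq2. The median log2 change of the 19 was 0.28, beside -0.02 over all genes.

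The insulin-like growth factor receptor gene IGF1R had 2810, 2645 and 2712 normalized reads in VIM-AS1 libraries, against 1840, 1938 and 2054 in control libraries. The groups did not overlap, and the log2 change was 0.49 ± 0.10 (SE; limma with the term, adjusted p = 0.0017). IGF2R, the mannose 6-phosphate receptor that clears IGF2, averaged 2324 ± 166 in VIM-AS1 libraries and 1823 ± 313 in control libraries, a log2 change of 0.36 ± 0.10 (SE; adjusted p = 0.018). The insulin receptor gene INSR averaged 407.4 ± 40.1 in VIM-AS1 libraries and 400.1 ± 29.3 in control libraries and did not pass, with a 95% interval from -0.23 to 0.28 for its log2 change of 0.02.

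The adaptor gene IRS2 had 1644, 1741 and 2140 normalized reads in VIM-AS1 libraries, against 922.8, 877.2 and 1122 in control libraries. Every VIM-AS1 library was above every control library, with a log2 change of 0.92 ± 0.10 (SE; limma with the term, adjusted p = 4.9e-06). IRS1 had 925.0, 883.7 and 999.8 normalized reads in VIM-AS1 libraries, against 605.3, 615.7 and 590.0 in control libraries. Its groups did not overlap either, and the log2 change was 0.63 ± 0.11 (SE; adjusted p = 0.00034).

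Among binding proteins, IGFBP3, a carrier of the growth factors in blood, averaged 3097 ± 196 normalized reads in VIM-AS1 libraries and 1979 ± 210 in control libraries (SD, n = 3 each), a log2 change of 0.65. IGFBP4 averaged 5828 ± 1386 in VIM-AS1 libraries and 3705 ± 1002 in control libraries, and IGFBP7 averaged 6385 ± 868 and 4096 ± 885, each with a log2 change of 0.66. IGFBP1 averaged 202.5 ± 13.6 in VIM-AS1 libraries and 118.9 ± 23.5 in control libraries, a log2 change of 0.78, and was named after its values were seen. All 4 passed in limma with the term, with adjusted p-values of 0.00029, 0.00021, 0.00050 and 0.0029 in the order of naming.

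The growth factor ligand IGF1 was close to the floor, with at most 1.02 normalized reads in a VIM-AS1 library and 3.66 in a control library. H19, the imprinted noncoding RNA gene beside IGF2, was the member of the axis list that fell, with 410.9, 570.2 and 237.4 normalized reads in VIM-AS1 libraries, against 2874, 502.1 and 447.0 in control libraries. IGFBP5, a binding protein gene, averaged 0.67 in VIM-AS1 libraries and 7.13 in control libraries and did not pass with the term (limma, adjusted p = 0.057), but was lower with the replicate number as a block (limma, adjusted p = 0.044). For H19, control replicate 1 was far above the other libraries, and the groups overlapped. The H19 log2 change was -1.18 (limma with the term, adjusted p = 0.025), and without control replicate 1 it was -0.42 (adjusted p = 0.062). Without VIM-AS1 replicate 3 or control replicate 3, 1 gene of the list passed in each case, beside 280 and 236 genes in all, and that gene was IRS2.

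**Figure D3:**
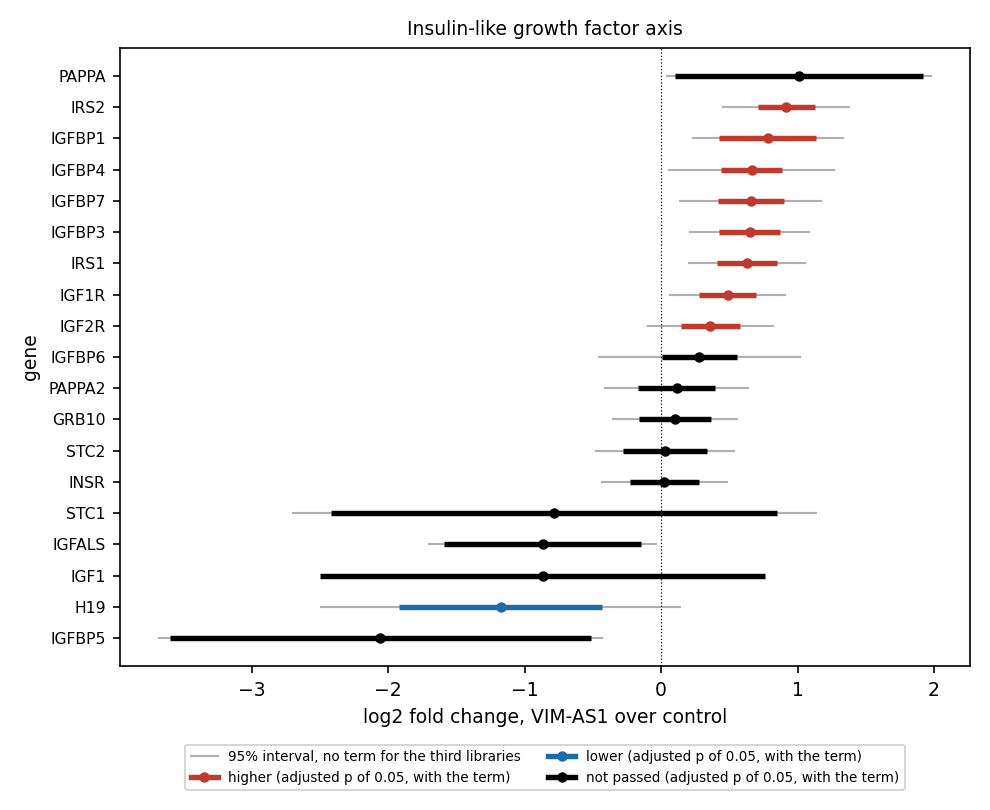
Log2 fold change of VIM-AS1 over control libraries for the 19 tested genes of the insulin-like growth factor axis, with 95% intervals from limma without (thin grey) and with (thick) a term for the third libraries. The 8 red genes lie between 0.36 and 0.92, and H19 is the blue gene at -1.18.

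Transcripts reported in the literature to be bound by IGF2BP proteins changed in both directions. Of 29 listed, 26 had values and were tested, 9 rose, 4 fell and 13 did not pass in limma with the term, beside 19.4% of all genes, and without the term 0 passed in limma (5 at an unadjusted p under 0.05), 0 in edgeR and 2 in DESeq2. The median log2 change was 0.23, beside -0.02 over all genes. With the replicate number as a block, 12 rose and 4 fell, beside 15.8% and 10.8% of all genes and 26.6% in either direction. The 3 added by the block were SLC1A5, MITF and ACTB, with log2 changes of 0.26, 0.30 and 0.39 and adjusted p-values of 0.011, 0.047 and 0.046 in limma, named after their values were seen.

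HMGCS1, which encodes the cytosolic HMG-CoA synthase of the cholesterol pathway, had 1549, 1332 and 2856 normalized reads in VIM-AS1 libraries, against 632.1, 467.9 and 876.7 in control libraries. Every VIM-AS1 library was above every control library, and the ratio of the means was 2.90. Its log2 change was 1.501 ± 0.12 (SE; limma with the term, adjusted p = 2.2e-07). HMGCS1 entered the list from published work on VIM-AS1, so its direction here is not independent evidence.

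CCND1, the cyclin D1 gene, had 1226, 1344 and 1367 normalized reads in VIM-AS1 libraries, against 747.2, 821.0 and 759.8 in control libraries. The groups did not overlap, and the log2 change was 0.76 ± 0.10 (SE; limma with the term, adjusted p = 5.8e-05). MAPK4, an atypical MAP kinase gene, averaged 317.4 ± 35.2 in VIM-AS1 libraries and 175.9 ± 22.95 in control libraries (SD, n = 3 each), a log2 change of 0.85. SRF, the serum response factor gene reported as stabilised by IGF2BP1, rose by 0.58 on the log2 scale, CCND3, the cyclin D3 gene, by 0.56, and NRAS by 0.47. Their adjusted p-values in limma with the term were 0.00033 for MAPK4, 0.00052 for SRF, 0.0018 for CCND3 and 0.0051 for NRAS.

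The 4 that fell were GLI1, a Hedgehog pathway transcription factor gene, H19, MARCKSL1 and the cell cycle transcription factor gene E2F1, of which GLI1, MARCKSL1 and E2F1 were named after their values were seen. GLI1 had 4.21, 9.80 and 3.07 normalized reads in VIM-AS1 libraries, against 11.5, 24.4 and 17.4 in control libraries, a log2 change of -1.56. MARCKSL1 fell by 0.36 and E2F1 by 0.34 on the log2 scale. None of these 4 passed in limma with the term without VIM-AS1 replicate 1, VIM-AS1 replicate 3 or control replicate 3.

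MYC, a well known mRNA bound by IGF2BP1, did not pass. It had 5221, 5444 and 4881 normalized reads in VIM-AS1 libraries, against 5329, 5995 and 5490 in control libraries. The groups overlapped, and the log2 change was -0.11 with a 95% interval from -0.33 to 0.11 (limma with the term, adjusted p = 0.51). Without VIM-AS1 replicate 3 or control replicate 3, 1 gene of the list passed in each case, and it was HMGCS1. Without VIM-AS1 replicate 1 or without VIM-AS1 replicate 2, 7 passed.

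Among proteins known to share ribonucleoprotein particles with the family, 6 were encoded by transcripts that rose. Of 11 listed genes, 10 had values and were tested, 6 rose, none fell and 4 did not pass in limma with the term, beside 11.5% higher and 7.94% lower of all genes. The median log2 change was 0.37, beside -0.02 over all genes. Without the term, 0 of the 10 passed in limma (2 at an unadjusted p under 0.05), and 0 in edgeR and DESeq2. With the term and reads scaled by library size 3 rose and 1, PABPC1, fell (log2 change -0.25, adjusted p = 0.040), PABPC1 being named after its values were seen. In the main scaling PABPC1, the poly(A)-binding protein gene, averaged 14189 ± 1097 normalized reads in VIM-AS1 libraries and 16279 ± 2488 in control libraries (SD, n = 3 each).

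DHX9, an RNA helicase gene, had 2346, 2163 and 3263 normalized reads in VIM-AS1 libraries, against 1463, 1223 and 1655 in control libraries. The groups did not overlap, and the log2 change was 0.83 ± 0.11 (SE; limma with the term, adjusted p = 3.0e-05). ELAVL1, whose product HuR binds AU-rich elements and stabilises mRNAs, had 2090, 2157 and 1734 normalized reads in VIM-AS1 libraries, against 1329, 1637 and 1283 in control libraries. Its groups did not overlap either, with a log2 change of 0.49 ± 0.11 (SE; adjusted p = 0.0024). The other 4 that rose were KHSRP, SYNCRIP, YBX1 and HNRNPU, with log2 changes of 0.44, 0.41, 0.38 and 0.37 in the order of naming. Without VIM-AS1 replicate 3 or control replicate 3, 0 of the 10 passed in limma with the term (4 at an unadjusted p under 0.05 in both cases), and without VIM-AS1 replicate 1, 3 passed.

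**Figure D4:**
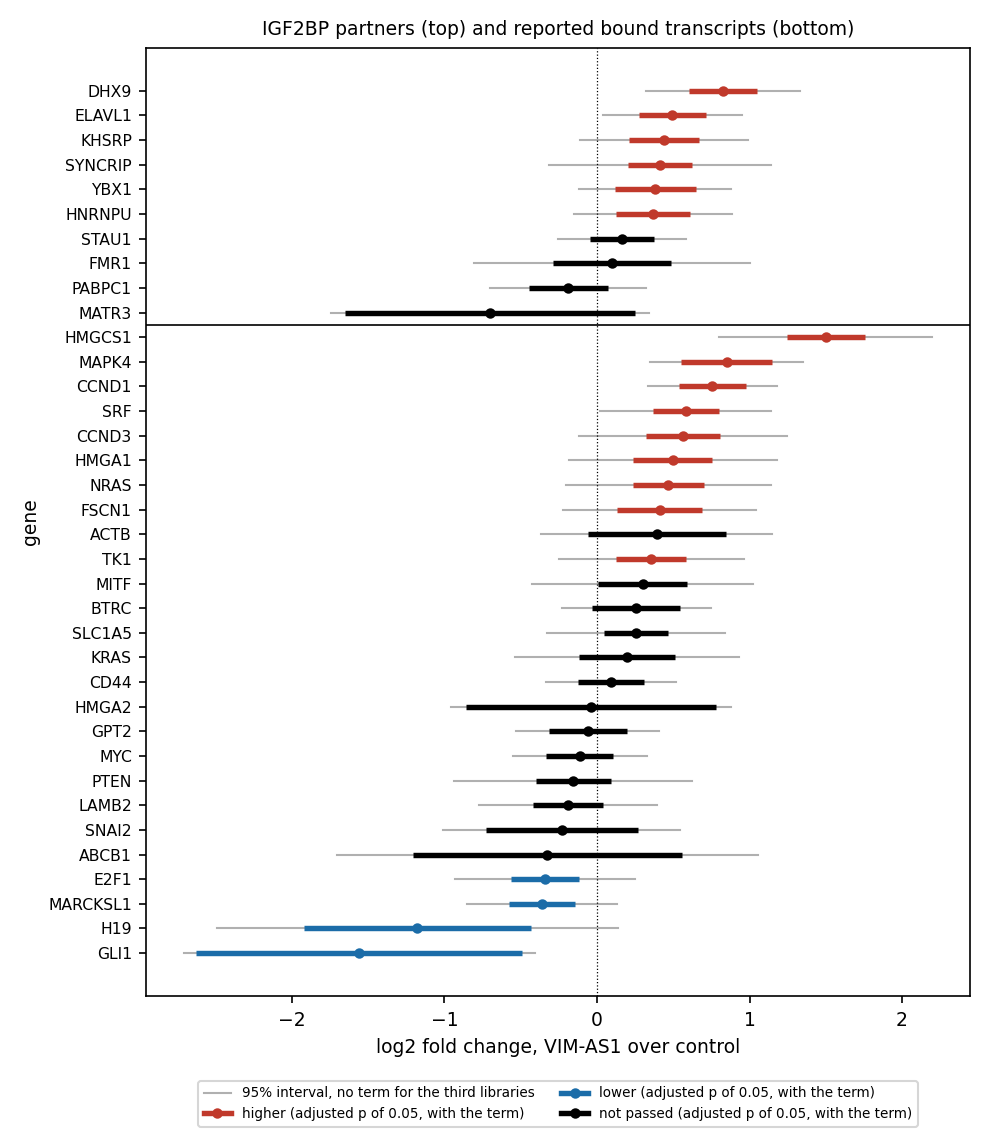
Log2 fold change of VIM-AS1 over control libraries for 10 genes of IGF2BP ribonucleoprotein partners (above the line) and 26 transcripts reported as bound by IGF2BP proteins (below it), with 95% intervals from limma without (thin grey) and with (thick) a term for the third libraries. Red genes passed as higher and blue genes as lower with the term; HMGCS1 lies farthest right at 1.501 and GLI1 farthest left at -1.56.

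Among markers of other cell types, those of fibroblasts were lower in VIM-AS1 libraries. Of 5 fibroblast markers, 4 were tested and 3 fell in limma with the term, beside 7.94% of all genes, and their summed level was 1781 to 2548 normalized reads in VIM-AS1 libraries and 2873 to 3714 in control libraries. DCN had 90.6, 91.1 and 118.7 in VIM-AS1 libraries, against 208.2, 207.7 and 342.0 in control libraries, PDGFRB averaged 985.5 ± 162.3 in VIM-AS1 libraries and 1489 ± 381 in control libraries, COL1A1 averaged 1108 ± 244 and 1506 ± 125 (SD, n = 3 each), and COL1A2 was at 0 in 5 of the 6 libraries. The summed leukocyte markers were 40.2 to 46.4 in VIM-AS1 libraries and 43.4 to 75.7 in control libraries, with 0 of 3 tested passing in limma with the term, and the summed endothelial markers were 64.5 to 108.8 and 33.2 to 64.7, with VWF the 1 of 2 tested that rose. COL1A1 and PDGFRB were thus well above 0 in both groups, as was the luminal marker HOXB13, in cells labelled LNCaP. Normalized reads are not divided by gene length, so they do not order the levels of these genes. Which cells carried these transcripts was not tested. The part of all these markers in the changes of the family, its partners and its reported targets was not tested.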

How the data were processed

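RNA was sequenced from 3 VIM-AS1 and 3 control libraries, with 1.3 µg of RNA put into each, per the labels. Reads were handled with fastp, HISAT2 and featureCounts on hg38, per the submitters' processing notes (versions not given there). The deposited values are a normalized signal per gene, and how they were normalized is not given in the sources used here. In every library 100% of values were whole multiples of 1 step, within 0.01 read, so whole reads were recovered from the deposited signal for TPM and for count tests.

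The deposited unit decided the test: limma 3.58.1 in R 4.3.3, with trend, on log2(value + 1), which understates the change of low genes, over 20927 genes whose mean was 1 or more. The plan had set edgeR as the main test for files of raw counts. P-values are two-sided, adjusted by Benjamini-Hochberg over all genes tested, with a threshold of 0.05. A second fit added a term for the third libraries. edgeR 4.0.16, DESeq2 1.42.0, limma-voom, other scalings, filters and a pseudocount of 0.1, the replicate block and leaving out each library were alternatives. The labels name no pairing. Same-numbered libraries deviated together (Pearson r of 0.32, 0.72 and 0.84 for numbers 1, 2 and 3), and on that basis the numbers were used as pairs. VIM-AS1 replicate 1 correlated more with control replicate 2 (0.42) than with control replicate 1, so the pairing of numbers 1 and 2 is uncertain. Fits were also run on simulated reads with known changes. The simulation gave both groups the same third-library shift, so it cannot decide whether the term is right for these data. No pair of libraries within a group agreed within sampling noise.

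Symbols, lengths and positions came from GENCODE 29 on GRCh38, with a symbol for 100% of genes. Coding regions were aligned with MAFFT 7.526. Members, lists and the third-library term were chosen with earlier results of these data known. Named from each list were the members past the threshold, up to 6 by smallest p, with IGF1R, IGF2R, INSR, MYC, HMGCS1 and ELAVL1 always. Also named were the nearest genes on either side of each member and the 3 genes with the highest r. One luminal prostate marker is not reported here.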

Additional observations from a re-analysis of the deposited data

How the results depend on the processing

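Without a term for the third libraries, 5 genes passed in limma (2854 at an unadjusted p under 0.05), 28 with library-size scaling, 17 with no filter on low values, 353 with DESeq2, 4 with edgeR, 336 with the first and second libraries alone, 5571 with the replicate block and 4065 with the third-library term, where edgeR gave 4199. Leaving out 1 library gave 1 to 6 genes without the term. With it, 2666 passed without VIM-AS1 replicate 1, 2450 without VIM-AS1 replicate 2, 280 without VIM-AS1 replicate 3, 4338 without control replicate 1, 3512 without control replicate 2 and 236 without control replicate 3. IGF2BP1 passed with the block (0.44, adjusted p = 0.00031), with the term in limma (0.44), in edgeR with the term (0.43) and in limma with the term after TMM scaling (0.43), but not with the term after library-size scaling (0.38, adjusted p = 0.054), and its change over all 26 alternatives was 0.38 to 0.48, with 7 passing. Without 1 library it ran from 0.38 to 0.48, at 0.45 without VIM-AS1 replicate 2 in the fit with the term. IGF2BP2 ran from -0.32 to 0.05 and IGF2BP3 from -0.20 to 0.39, with none of 26 passing for either gene. The ratio of IGF2BP1 to IGF2BP3 over all libraries was 3.602 by exon length and 1.98 by longest transcript.

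With the term, leaving out 1 library gave 1 to 9 genes called on the growth factor axis list, 1 to 12 among reported bound transcripts, 0 to 6 among partners and 0 to 5 on the let-7 list. With the first and second libraries alone these counts were 1, 2, 1 and 0, and library-size scaling gave 2 on the let-7 list. All 34 list genes named or counted as passing kept their call in edgeR with the term, after TMM scaling and with the replicate block, and 27 did with library-size scaling. Without VIM-AS1 replicate 3 or control replicate 3, 3 of the 34 did, namely IRS2, HMGCS1 and DCN. Beyond the calls given with the results, the replicate block changed no other call among the paralogs and the list genes. Leaving out VIM-AS1 replicate 3 or control replicate 3 leaves 1 library numbered 3, which the term then fits exactly. Both fits therefore compare only replicates 1 and 2 of each group, and they are not separate checks. The IGF2BP1 log2 change, for example, was 0.46 in both and also with replicates 1 and 2 alone. The cause of the other differences was not tested. TMM and library-size scaling gave a median log2 change of all genes of -0.03 and -0.08, beside -0.02. Depth limits IGF2BP2 most, with 59 reads in the lowest library.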

Other observations

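The let-7 and oncofetal list, fixed for its link to the family's 3′ UTR matches, changed in no common direction. Of 15 listed genes, 11 had values and were tested, 2 rose, 2 fell and 7 did not pass in limma with the third-library term, beside 11.5% higher and 7.94% lower of all genes. The median log2 change was -0.04, beside -0.02 over all genes. PLAGL2, a zinc finger gene of the PLAG family, rose, with 555.2, 624.1 and 579.2 normalized reads in VIM-AS1 libraries, against 349.2, 497.2 and 384.6 in control libraries (log2 change 0.53, adjusted p = 0.0076). HMGA1, a chromatin protein gene, averaged 19306 ± 4950 in VIM-AS1 libraries and 13852 ± 4265 in control libraries (SD, n = 3 each) and also rose, by 0.50 on the log2 scale. TUT4, whose product uridylates let-7 precursors together with LIN28, fell, with 300.3, 238.1 and 452.3 normalized reads in VIM-AS1 libraries, against 384.6, 334.7 and 576.6 in control libraries (log2 change -0.40, adjusted p = 0.035). Within each replicate number the VIM-AS1 library was the lower one. PLAG1 fell by 0.77 on the log2 scale (adjusted p = 0.048). Without VIM-AS1 replicate 2, VIM-AS1 replicate 3 or control replicate 3, 0 genes of this list passed in limma with the term (3, 4 and 3 at an unadjusted p under 0.05 in the order of naming).

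TRA2A and TRA2B, a pair of paralogous splicing regulator genes, each flank an IGF2BP gene, TRA2A at 34313 bases from IGF2BP3 and TRA2B at 90850 bases from IGF2BP2. TRA2A was named after its values were seen. It had 430.9, 378.2 and 554.6 normalized reads in VIM-AS1 libraries, against 393.3, 315.2 and 590.8 in control libraries, and did not pass (log2 change 0.10, limma with the third-library term, adjusted p = 0.64). The TRA2B values are given with the flanking genes.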
